A study of Mus musculus with 6 samples.

Results

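The 70 genes described here encode heat shock proteins and their DnaJ co-chaperones. They were taken by symbol from the array's annotation, as every Hspa, Hspb, Hspd, Hspe, Hsph and Hsp90 gene and every Dnaja, Dnajb and Dnajc gene that a transcript cluster names alone, out of 19938 genes named in this way. On this array the probes of each transcribed locus form a transcript cluster. Where several clusters named a gene, the cluster with the highest mean over all arrays stood for it. Grouped by symbol alone, the members comprise 12 Hsp70 genes, 1 Hsp110 gene, 2 Hsp90 genes, 2 chaperonin genes and 8 small heat shock (Hspb) genes. The DnaJ genes are 4 DnaJA genes, 13 DnaJB genes and 28 DnaJC genes. Hspa1b is named only in a cluster that it shares with Hspa1a, and Hsp90ab1 was not analysed here.

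Whole-brain RNA came from male C57BL6 mice, bought at 7 to 8 weeks of age, that received LPS from Escherichia coli (4 mg/kg, n = 3) or PBS as the vehicle (n = 3) by a single intraperitoneal injection. Brains were taken 48 hours later, after perfusion, and each was hybridized to 1 Mouse Gene 1.0 ST array. The comparison asks which transcripts of the brain differ at that time after a systemic inflammatory stimulus, and all brain regions and cell types are pooled in each value. Values are log2 expression, so that a log2 fold change of 0.58 is a 1.5-fold difference, and levels of different clusters cannot be set against each other because their probes differ.

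Heat shock proteins hold unfolded or newly made proteins and help them to fold, to reach an organelle or to be degraded. Hsp70 proteins work in cycles of ATP hydrolysis that DnaJ proteins start through their J domain, and nucleotide exchange factors end each cycle. Hsp90 acts on nearly folded clients such as kinases and steroid receptors, chaperonins enclose a client in a ring, and small heat shock proteins bind unfolded proteins without ATP. Heat shock factor 1 switches on the heat-inducible members through heat shock elements, and the unfolded protein response does the same for members of the endoplasmic reticulum (ER) through ER stress response elements. In brain, neurons contain large amounts of constitutive Hsp70 and Hsp90, and fever and inflammation are known triggers of the heat shock response.

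Promoters with matches to these elements are shown first, since the elements define both responses, although not every known target has a match in the window searched. RefSeq promoter windows of GRCm38.p6, from 250 bases before to 50 bases after each start, were given for 57 of the 70 members. A heat shock element was taken as 2 adjoining units of opposite orientation, GAANNTTC or TTCNNGAA, each of which reads the same on both strands. At least 1 such match was present in 15 of the 57 members (26.3%), against 17% of all 27025 genes in that set. A run of 3 alternating units, which contains the 2-unit match, was present in 4 members (7.02%), Dnajb6, Hspd1, Hspe1 and Hsph1, against 0.662% of all genes. The inducible Hsp70 gene Hspa1a and the small heat shock gene Hspb1 are printed with their upstream sequence, and the other genes as short sites. Capitals mark the matched bases. The stretches lie at chr17:34972208-34972305 (minus strand) for Hspa1a and at chr5:135887757-135887874 (plus strand) for Hspb1. The chaperonin genes Hspe1 and Hspd1 share 1 promoter and run in opposite directions, so that 1 site of 4 units at chr1:55088053-55088082 serves both and is printed on the strand of Hspe1. The site of Dnajb6 lies at chr5:29735846-29735870 (plus strand). Those of Hspb6 and Dnajb4, at chr7:30553175-30553194 (plus strand) and chr3:152193846-152193865 (minus strand), belong to genes whose values are given in full further on. Both of these sites lie inside the span of their own gene, before an internal start. The site shared by Hspe1 and Hspd1 also lies within the span of Hspd1.
Hspa1a: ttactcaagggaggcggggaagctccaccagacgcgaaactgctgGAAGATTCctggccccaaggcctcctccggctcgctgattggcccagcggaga
Hspb1: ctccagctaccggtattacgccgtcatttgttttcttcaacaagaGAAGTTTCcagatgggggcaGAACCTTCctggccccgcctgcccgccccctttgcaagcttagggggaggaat
Hspe1 and Hspd1: ggtccgTTCTAGAACCTTCCGGAAggcccc
Dnajb6: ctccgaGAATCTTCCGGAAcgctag
Hspb6: attattGAAGTTTCtaaata
Dnajb4: tcgctgTTCTAGAAagtaca

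The ER stress response element, CCAAT and CCACG with 9 bases between them, searched on both strands, was present in 3 members (5.26%), against 0.137% of all genes. These were Hspa5, Hsp90b1 and Dnajc3, which encode the ER Hsp70 (BiP), the ER Hsp90 (GRP94) and a co-chaperone of BiP that also inhibits the kinase PERK. The stretches shown lie at chr2:34771980-34772088 (plus strand) for Hspa5, at chr10:86705488-86705694 (minus strand) for Hsp90b1, which holds a match in each orientation, and at chr14:118937782-118937890 (plus strand) for Dnajc3. Capitals mark the whole match with its spacer.
Hspa5: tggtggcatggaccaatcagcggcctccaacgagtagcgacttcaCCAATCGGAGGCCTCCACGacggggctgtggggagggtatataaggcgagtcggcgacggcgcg
Hsp90b1: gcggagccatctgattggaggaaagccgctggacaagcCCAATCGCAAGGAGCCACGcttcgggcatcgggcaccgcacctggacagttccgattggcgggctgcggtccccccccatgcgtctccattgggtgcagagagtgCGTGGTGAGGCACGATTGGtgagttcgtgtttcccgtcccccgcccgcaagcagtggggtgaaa
Dnajc3: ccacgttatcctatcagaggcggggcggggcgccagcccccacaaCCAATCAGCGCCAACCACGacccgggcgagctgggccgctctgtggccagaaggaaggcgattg

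A match is a description of these letters and not a site of binding. The 15 members with a heat shock element had a median log2 fold change of -0.02, and the 42 without one had a median of -0.03.

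Some facts of the arrays bear on every value. LPS replicates 1 and 2 had median log2 values of 7.09 and 7.11 over all clusters, against 6.96 in LPS replicate 3 and 6.95 to 6.98 in the PBS arrays. The 7 neuronal marker genes lay between 11.00 and 13.60 and had a median log2 fold change of -0.04, while liver and skeletal muscle markers lay between 5.09 and 7.05, against array medians of 5.67 to 5.81 for receptor genes hardly transcribed in brain. All 6 endothelial markers were above their PBS means, 4 of them by limma's adjusted p, with a median log2 fold change of 0.97. In whole tissue, a different number of cells of a type and a different amount of RNA per cell cannot be told apart.

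No member passed the test. By limma over all 35556 clusters, 0 of 70 members were higher and 0 were lower at an adjusted p under 0.05, while 0.714% of all clusters were called in either direction. The lowest adjusted p of a member was 0.186. The methods' t-test on the same values called 0 members as well and 0.0141% of all clusters. At an unadjusted limma p under 0.05, 6 members were higher (8.57%, against 7.69% of all clusters) and 6 were lower (8.57%, against 6.58%). The 3 LPS arrays lay above the 3 PBS arrays in 10 members (14.3%, against 9.73% of all clusters) and below them in 8 (11.4%, against 10.3%). Of all 19938 named genes, 6.24% were higher and 7.24% lower at that p, and the LPS arrays lay above in 9.79% and below in 11.2%. The shares of the members were close to those of all clusters and of all named genes, with the widest gap for LPS arrays above PBS arrays.

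The differences were also small. Log2 fold changes ran from -0.43 to 0.37 with a median of -0.02, equal to the median of -0.02 over all named genes, and 30 members were above 0 and 40 below. The 95% confidence interval lay within a 1.5-fold difference in both directions for 62 of the 70 members (88.6%), against 86.6% of all named genes. The 8 members whose interval reached further were Dnajb1, Dnajc30, Dnajc5g, Hspa14, Hspa2, Hspb1, Hspb6 and Hspb8. Below the receptor median in all PBS arrays were Dnajb7, Dnajc22 and Hspb7, for which a lack of difference says little.

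The split between the directions depended on the scaling of the arrays. Beside 6 higher and 6 lower at an unadjusted limma p under 0.05, quantile normalization gave 3 higher and 7 lower (6.7% and 8.9% of all clusters), and centring each array on its median gave 0 higher and 9 lower (4.83% and 11.7% of all clusters). Centring moved the median of the members to -0.11 and that of all named genes to -0.11, and 15 members with small log2 fold changes, among them Hspa8, Hspa5, Hsph1 and Dnaja1, took the other sign under one or both scalings.

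**Figure D1:**
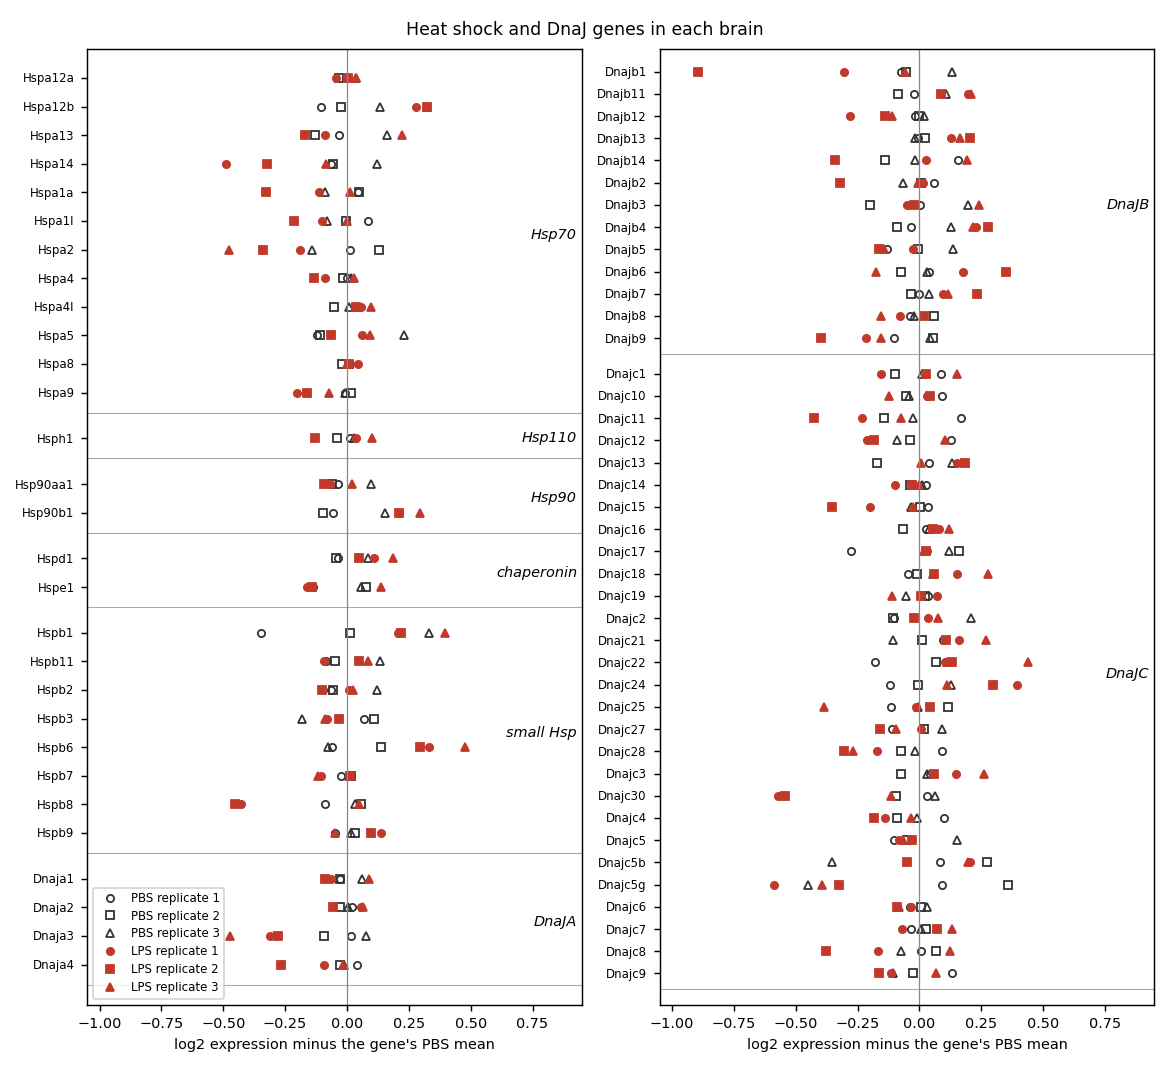
Log2 expression of each of the 70 genes minus the mean of its 3 PBS arrays (horizontal axis), with 1 symbol for each array, PBS open and LPS filled, grouped by family. All LPS symbols lie above all PBS symbols in 10 genes and below them in 8, and the groups overlap in the other genes. For Dnajb1, Hspb8, Dnajc30 and Hspa14 the triangle of LPS replicate 3 lies nearer to the PBS arrays than the circle and square of LPS replicates 1 and 2.

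Of the cytosolic Hsp70, Hsp110 and Hsp90 genes Hspa8, Hspa1a, Hspa4, Hsph1 and Hsp90aa1, none was at an unadjusted limma p under 0.05. Hspa8 encodes the constitutive Hsc70. Its log2 expression was 13.31, 13.27 and 13.30 in the PBS mice and 13.34, 13.30 and 13.29 in the LPS mice. The groups overlapped and the difference was 0.02 (95% confidence interval -0.14 to 0.18), so that a 1.5-fold difference lies outside the interval of this cluster. Dimmer clusters that name Hspa8 alone had log2 fold changes of 0.00 and 0.05. Clusters that Hspa8 shares with Snord14d and Snord14c had 0.27, and 0.55 without LPS replicate 3 (limma, adjusted p = 0.0169). In LPS replicate 3 alone the shared clusters had -0.29 and -0.30. Hspa1a, the classic heat-induced Hsp70 whose promoter is shown above, had values of 7.95, 7.95 and 7.81 after PBS and 7.79, 7.58 and 7.92 after LPS. These groups overlapped too, with a log2 fold change of -0.14 (95% confidence interval -0.40 to 0.11). The cluster that it shares with Hspa1b had a log2 fold change of -0.13, from 8.40, 8.58 and 8.37 to 8.41, 8.17 and 8.38. Hspa4 and Hsph1 encode Hsp110-type exchange factors of Hsp70, with log2 fold changes of -0.06 and 0.00. Hsp90aa1, the inducible cytosolic Hsp90, had values of 12.60, 12.58 and 12.74 after PBS and of 12.57, 12.54 and 12.66 after LPS, which overlapped.

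Among the Hsp70 genes, 1 was higher and 2 were lower at an unadjusted limma p under 0.05. Hspa12b encodes a distant relative of Hsp70 known from endothelial cells. Its values were 6.23, 6.31 and 6.47 in the PBS mice and 6.61, 6.66 and 6.66 in the LPS mice. All LPS values lay above all PBS values, with a log2 fold change of 0.31 (95% confidence interval 0.10 to 0.51, limma, adjusted p = 0.221). It was 0.30 without LPS replicate 3 and 0.32 in that array alone. Beside it, endothelial Cldn5, Cdh5, Tek and Pecam1 were higher by 0.98, 0.85, 1.04 and 1.04 on the log2 scale (limma, adjusted p = 0.00456, 0.00492, 0.00465 and 0.0207), and Flt1 and Slco1a4 were 0.59 and 0.97 above their PBS means (adjusted p = 0.129 and 0.126). The part of these cells in the value of Hspa12b was not tested.

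Hspa2 encodes an Hsp70 needed in spermatogenesis and also made in brain. It measured 7.72, 7.83 and 7.56 after PBS and 7.51, 7.36 and 7.23 after LPS. The groups did not overlap, though the lowest PBS value and the highest LPS value differed by little, and the log2 fold change was -0.34 (95% confidence interval -0.60 to -0.08, limma, adjusted p = 0.270). Hspa14, whose product binds the ribosome together with that of Dnajc2, measured 8.81, 8.82 and 9.0 against 8.39, 8.55 and 8.79. LPS replicate 3 came close to the PBS mice, and the log2 fold change was -0.30 (limma, adjusted p = 0.336). Its partner Dnajc2 had a log2 fold change of 0.03. Hspa9 encodes mitochondrial Hsp70 and is described with the mitochondrial members.

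Among the small heat shock genes, Hspb6 had the lowest p. Hspb6 encodes Hsp20, a protein of smooth and striated muscle that is also found in other cells, from a gene at chr7:30552535-30555443. Its values were 8.26, 8.46 and 8.25 in the PBS mice and 8.65, 8.62 and 8.80 in the LPS mice. Every LPS mouse was above every PBS mouse, with a log2 fold change of 0.37 (95% confidence interval 0.14 to 0.59, limma, adjusted p = 0.191). The mural cell markers, of pericytes and vascular smooth muscle, had log2 fold changes from 0.02 (Tagln) to 0.47 (Rgs5) with a median of 0.28. None of the 6 passed. At an unadjusted limma p under 0.05, 3 of them, Pdgfrb, Acta2 and Rgs5, were higher, against 7.69% of all clusters. Their part in the value of Hspb6 was not tested. Hspb1, which encodes the stress-induced Hsp27, varied widely in the PBS mice, with values of 7.38, 7.74 and 8.06 against 7.93, 7.94 and 8.12 after LPS. The groups overlapped and the interval was wide (log2 fold change 0.27, 95% confidence interval -0.13 to 0.68). A slightly dimmer cluster of Hspb1 measured 7.47, 7.91 and 7.49 against 8.10, 7.99 and 8.09, a log2 fold change of 0.44 (limma, adjusted p = 0.242). Both clusters were thus above 0, and neither passed.

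Hspb8 encodes a small heat shock protein that works with Bag3 and Hsp70 in selective autophagy. It measured 8.36, 8.51 and 8.48 in the PBS mice and 8.02, 8.00 and 8.50 in the LPS mice. LPS replicates 1 and 2 lay below all PBS mice and LPS replicate 3 lay among them. Over the 3 mice the log2 fold change was -0.28 (limma, adjusted p = 0.423), and without LPS replicate 3 it was -0.44 (limma, adjusted p = 0.0269). Its partner Bag3, named after its values were seen, measured 7.58 and 7.71 in LPS replicates 1 and 2, below its PBS values of 7.80 to 8.09, and 8.25 in LPS replicate 3, above them. Of the other Hspb genes, Hspb11, Hspb2, Hspb3, Hspb7 and Hspb9 had log2 fold changes from -0.07 to 0.06.

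Of the 8 chaperones of the ER lumen, none passed, and 1 was higher and 1 was lower at an unadjusted limma p under 0.05, Hsp90b1 and Dnajb9. Hsp90b1 measured 11.14, 11.10 and 11.35 after PBS and 11.41, 11.41 and 11.49 after LPS. The groups did not overlap, although PBS replicate 3 came near the LPS mice, and the log2 fold change was 0.24 (95% confidence interval 0.02 to 0.45, limma, adjusted p = 0.319). Hspa5, the defining target of the unfolded protein response, measured 11.29, 11.30 and 11.64 against 11.47, 11.35 and 11.51. Its highest value came from a PBS mouse, and the log2 fold change was 0.03 (95% confidence interval -0.25 to 0.31). Dnajc3 measured 9.45, 9.33 and 9.43 against 9.55, 9.46 and 9.66, a log2 fold change of 0.16 (limma, adjusted p = 0.437). The 3 members with an ER stress response element therefore had log2 fold changes of 0.03, 0.16 and 0.24, all with intervals within a 1.5-fold difference.

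Dnajb11, a BiP co-chaperone, was 0.16 above its PBS mean. Dnajb9 encodes ERdj4, which takes part in ER-associated degradation and is a known target of the transcription factor Xbp1. It measured 11.14, 11.29 and 11.28 after PBS and 11.02, 10.84 and 11.08 after LPS, with no overlap. The log2 fold change of Dnajb9 was -0.26 (95% confidence interval -0.48 to -0.03, limma, adjusted p = 0.310). That of Xbp1 itself had the other sign, 0.26 (limma, adjusted p = 0.330). Over the 8 members that act in the ER lumen (those named, Hspa13, Dnajc1 and Dnajc10) the median log2 fold change was 0.02, and it was -0.07 with each array centred on its median. In LPS replicate 3 alone the median was 0.18, and without that array it was 0.02. Dnajb12, anchored in the ER membrane with its J domain in the cytosol, measured 8.50, 8.52 and 8.54 against 8.24, 8.38 and 8.41 (log2 fold change -0.18, limma, adjusted p = 0.367).

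The mitochondrial members were mostly below their PBS means. Of the 10, 9 had a log2 fold change below 0, as had 10862 of all 19938 named genes. At an unadjusted limma p under 0.05, 3 were lower, against 7.24% of all named genes. The median was -0.17, against -0.02 over all named genes. It was -0.18 with quantile normalization and -0.26 with centring, against -0.04 and -0.11 over all named genes. The median of the 10 was -0.21 without LPS replicate 3 and -0.07 in that array alone. The group was formed after its values were seen, so that its count is a description. Genes of mitochondria or of mitochondrial import in the lists given further on had both signs. Tomm34, Trap1, Grpel2, Clpp and Tomm70a had log2 fold changes of 0.30, 0.08, 0.03, 0.02 and 0.00. Lonp1, Hscb, Clpx, Grpel1 and Clpb had -0.33, -0.23, -0.16, -0.12 and -0.03.

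Dnaja3, at chr16:4684070-4707695, encodes Tid1, the DnaJ partner of mitochondrial Hsp70, and had the lowest p of all members. Its values were 9.69, 9.58 and 9.75 in the PBS mice and 9.36, 9.40 and 9.20 in the LPS mice. The groups stood apart, LPS replicate 3 was the lowest, and the log2 fold change was -0.35 (95% confidence interval -0.57 to -0.14, limma, adjusted p = 0.186). Hspa9, its Hsp70 partner (mortalin), measured 11.36, 11.38 and 11.36 against 11.16, 11.20 and 11.29. These groups were apart as well, with a log2 fold change of -0.15 (95% confidence interval -0.32 to 0.03).

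Dnajc30 encodes a protein of the inner mitochondrial membrane that serves the respiratory chain. It measured 8.26, 8.14 and 8.30 after PBS and 7.66, 7.69 and 8.12 after LPS. LPS replicates 1 and 2 were clearly lower and LPS replicate 3 was just below the PBS mice, and the log2 fold change was -0.41 (95% confidence interval -0.73 to -0.09, limma, adjusted p = 0.276). Without LPS replicate 3 it was -0.56 (limma, adjusted p = 0.0157), and in that array alone it was -0.11. Dnajc28, a little studied DnaJ protein, measured 7.49, 7.32 and 7.38 against 7.23, 7.09 and 7.13, with no overlap (log2 fold change -0.25, limma, adjusted p = 0.272). Dnajc15 and Dnajc19, J proteins of the import motor of the inner membrane, had log2 fold changes of -0.19 and -0.01, and Dnajc11, of the outer membrane, had -0.24. The chaperonin pair from 1 promoter differed little, with 0.12 for Hspd1 (Hsp60) and -0.06 for Hspe1 (Hsp10), and a dimmer cluster of Hspd1 had 0.24 (limma, adjusted p = 0.323).

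**Figure D2:**
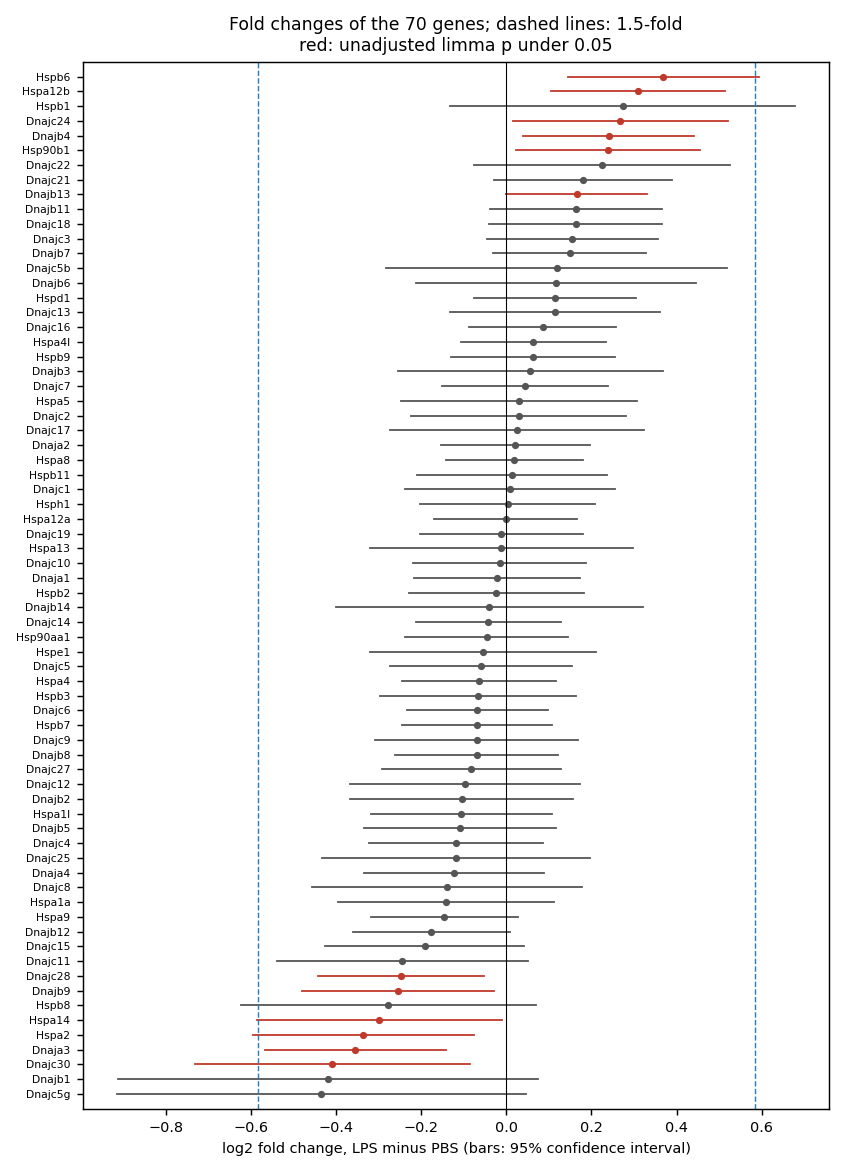
Log2 fold change, LPS minus PBS, of each gene (points) with its 95% confidence interval (bars), ordered by size. Red marks the 12 genes at an unadjusted limma p under 0.05, none of which passed after adjustment, and the dashed lines mark a 1.5-fold difference, which 62 of 70 intervals do not reach.

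Among the cytosolic DnaJ genes, Dnajb1 had one of the lowest log2 fold changes and a very wide interval. Dnajb1 encodes the heat-induced Hsp40 that pairs with Hsp70. It measured 8.77, 8.79 and 8.97 in the PBS mice and 8.54, 7.94 and 8.78 in the LPS mice. LPS replicate 2 was far below the rest and LPS replicate 3 lay among the PBS mice, so that the log2 fold change of -0.42 had a 95% confidence interval from -0.91 to 0.07 (limma, adjusted p = 0.404). Dnaja1, also heat-induced, measured 11.78, 11.78 and 11.87 against 11.75, 11.72 and 11.90, a log2 fold change of -0.02. A dimmer cluster of Dnaja1 had a log2 fold change of 0.30 (limma, adjusted p = 0.360), so that the 2 clusters of this gene do not share a sign. Dnaja2 and Dnaja4 had log2 fold changes of 0.02 and -0.12.

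Dnajb4 encodes a DnaJ partner of cytosolic Hsp70. Its heat shock element lies 6 bases before a start that is inside the gene's span (chr3:152181580-152210432, minus strand). Dnajb4 measured 11.34, 11.28 and 11.50 after PBS and 11.60, 11.65 and 11.59 after LPS. The LPS mice were close together and all above the PBS mice (log2 fold change 0.24, 95% confidence interval 0.04 to 0.44, limma, adjusted p = 0.294). Dnajc24, which serves the synthesis of diphthamide on elongation factor 2, measured 8.73, 8.84 and 8.97 against 9.24, 9.15 and 8.96. Here LPS replicate 3 overlapped the PBS mice, and the log2 fold change was 0.27 (limma, adjusted p = 0.330). For Dnajb14 the log2 fold change was -0.04 (95% confidence interval -0.40 to 0.32). Dnajb6, a suppressor of protein aggregation with 3 heat shock units, is named alone in a dim cluster (mean 6.04, log2 fold change 0.12), while 4 bright clusters that it shares with Gm4247 lay between 12.58 and 13.10 with log2 fold changes from -0.01 to 0.02.

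The members that serve synaptic vesicles and clathrin differed little. Dnajc5 encodes cysteine string protein of synaptic vesicles and Dnajc6 encodes auxilin, which uncoats clathrin vesicles with Hsc70. Their log2 fold changes were -0.06 and -0.07, and both intervals lay between -0.27 and 0.16. Dnajc13, which acts on endosomes, is represented by 15 clusters. All 15 had a log2 fold change above 0, from 0.01 to 0.29, and 2 of them were at an unadjusted limma p under 0.05, with a lowest adjusted p of 0.302. The brightest had 0.11, and clusters of 1 gene share their RNA and are not replicates.

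Some members are known from germ cells or motile cilia, and most of them had low signals here. Dnajb13 encodes a radial spoke protein of cilia and flagella. It measured 6.09, 6.12 and 6.08 after PBS and 6.22, 6.30 and 6.26 after LPS, which stood apart by a small amount (log2 fold change 0.17, limma, adjusted p = 0.350). These values lie close to the receptor medians. The 6 markers of ependyma and choroid plexus, whose cells bear cilia, had a median log2 fold change of -0.13, which was -0.27 without LPS replicate 3 and 0.16 in that array alone. Dnajc5g had the most negative log2 fold change of all members, -0.43, with PBS values of 5.64, 5.90 and 5.10 spread around the receptor medians and LPS values of 4.96, 5.22 and 5.15. The 9 genes of this kind, Hspa2 among them, had means from 5.33 to 7.54, the highest being that of Hspa2. Their median log2 fold change was 0.06, and it was -0.04 with quantile normalization and -0.03 with centring.

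The LPS mice were also compared with each other. The median of the members, each taken relative to its PBS mean, was -0.04 in LPS replicates 1 and 2 and 0.03 in LPS replicate 3, while the PBS arrays lay between -0.03 and 0.03, so that the LPS medians spanned little more than the PBS medians. The 9 members counted with the heat shock response (Hspa1a, Hsp90aa1, Hsph1, Hspb1, Dnaja1, Dnajb1, Hspd1, Hspe1 and Hspa8, the last also made constitutively) had a median log2 fold change of -0.02 over the 3 LPS mice, of -0.08 without LPS replicate 3 and of 0.09 in that array alone. Without Hspa8 these medians were -0.03, -0.08 and 0.10. With quantile normalization the median of the 9 was 0.03 and with centring it was -0.11. Without LPS replicate 3, 0 members were higher by limma, against 678 of 19938 named genes and 2640 of 35556 clusters. In that setting 2 members were lower, Dnajc30 and Hspb8, against 695 of the named genes and 3.24% of all clusters. With LPS replicates 1 and 2 both left out, 0 members were called. The part of the difference in array medians between LPS replicates 1 and 2 and LPS replicate 3 in these values was not tested.

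**Figure D3:**
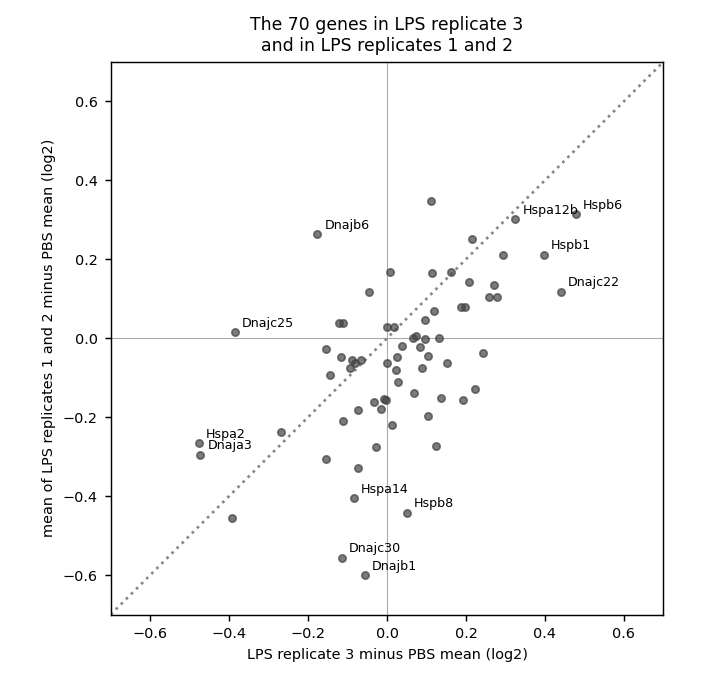
For each of the 70 genes (points), the difference from the PBS mean in LPS replicate 3 (horizontal axis, log2) and the mean difference in LPS replicates 1 and 2 (vertical axis, log2), with the line of equality dotted. Both axes subtract the same PBS means. Hspa12b lies near the line and Hspa2 and Dnaja3 lie above it, with their lowest value in LPS replicate 3, whereas Dnajb1, Hspb8, Dnajc30 and Hspa14 lie far below it.

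Of 94 genes that work with these chaperones or respond to the same stresses, in 8 lists, 0 were higher and 1 was lower by limma. Without LPS replicate 3, 5 were lower, against 3.24% of all clusters. These were Cirbp, the exchange factor gene Bag5 (-0.65, limma, adjusted p = 0.0266), the TRiC gene Cct6b (-0.44, adjusted p = 0.0474) and the Hsp90 co-chaperone genes Cdc37 and Fkbp8. None of 5 genes of heat shock factors and their binding proteins was at an unadjusted limma p under 0.05, with log2 fold changes of -0.16 for Hsf5, -0.15 for the heat shock factor-binding gene Hsbp1, -0.18 for Hsf4 and -0.02 for Hsf2 and a list median of -0.15, and Hsf1 was not named alone. Of 16 nucleotide exchange factors and partners of Hsp70, 0 were called, and Tomm34, of mitochondrial import (log2 fold change 0.30, limma, adjusted p = 0.319), and Hspbp1, an exchange factor (-0.25, adjusted p = 0.270), had an unadjusted p under 0.05. The median of that list was -0.11, and it was 0.04 in LPS replicate 3 alone. Of the 9 genes of the cytosolic chaperonin TRiC, 0 were called and 8 were below 0, with a median of -0.12 and a range from -0.26 to 0.05.

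The Hsp90 co-chaperones held the most negative value of any gene in these lists. Fkbp5, an Hsp90 co-chaperone and a known target of the glucocorticoid receptor, measured 8.07, 8.37 and 8.37 in the PBS mice and 7.76, 7.08 and 7.74 in the LPS mice. No LPS value reached the PBS values, and the log2 fold change was -0.75 (95% confidence interval -1.22 to -0.28, limma, adjusted p = 0.203). Cdc37, which brings kinases to Hsp90, measured 9.40, 9.13 and 9.41 against 8.79, 8.67 and 9.01 (log2 fold change -0.49, limma, adjusted p = 0.186). The groups were apart, and without LPS replicate 3 the log2 fold change was -0.59 (limma, adjusted p = 0.0285). Of the 17 genes, 0 were called. At an unadjusted limma p under 0.05, 4 were lower and 1 was higher, against 6.58% and 7.69% of all clusters. The other lower genes were Fkbp8 (-0.29, and -0.37 without LPS replicate 3, limma, adjusted p = 0.0379) and Ahsa1 (-0.22). The higher gene was Ahsa2 (0.35). The median of the 17 was -0.01.

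Of 24 genes of the unfolded protein response, 0 were called, and the median log2 fold change was 0.08. At an unadjusted limma p under 0.05, 7 were higher and 2 were lower, against 7.69% and 6.58% of all clusters. Edem1, which takes misfolded glycoproteins to degradation, measured 9.16, 9.18 and 8.99 after PBS and 9.45, 9.61 and 9.47 after LPS, with no overlap (log2 fold change 0.40, limma, adjusted p = 0.152). Sdf2l1, an ER partner of BiP, had 0.42 (adjusted p = 0.194), Pdia4, a protein disulfide isomerase, had 0.28 (adjusted p = 0.244), and Herpud1, of ER-associated degradation, had -0.29 (adjusted p = 0.213). Quantile normalization gave 8 higher and 2 lower (6.7% and 8.9% of all clusters) and a median of 0.09. Centring each array on its median gave 2 higher and 2 lower (4.83% and 11.7% of all clusters). The median was then -0.01, where the median of all named genes was -0.11.

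Chaperone relatives under other names gave 0 calls among 11, with a median of -0.12. At an unadjusted limma p under 0.05, 3 were lower, against 6.58% of all clusters. These were Cryab, the small heat shock protein αB-crystallin of oligodendrocytes and astrocytes (-0.25, adjusted p = 0.264), the mitochondrial protease gene Lonp1 (-0.33, adjusted p = 0.279) and the collagen chaperone gene Serpinh1 (-0.63, adjusted p = 0.284). The 5 oligodendrocyte markers had a median of -0.14 and the 6 astrocyte markers one of 0.10, and their part in the value of Cryab was not tested. The 1 called gene of all lists was the cold-inducible Cirbp, with 9.42, 9.29 and 9.36 against 8.73, 8.63 and 8.77 (log2 fold change -0.65, limma, adjusted p = 0.0212). With any 1 array left out it stayed between -0.68 and -0.61. The call was lost by the methods' t-test (adjusted p = 0.0901), with the replicate number as a block (adjusted p = 0.0968), and without any 1 of the arrays other than LPS replicate 3 (adjusted p = 0.0836 to 0.121). Rbm3, the other cold-inducible gene, had a log2 fold change of -0.14. Of 10 immediate early genes 0 were called, with Npas4, an activity-induced transcription factor, at 1.04 (limma, adjusted p = 0.226) and a list median of 0.17.

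**Figure D4:**
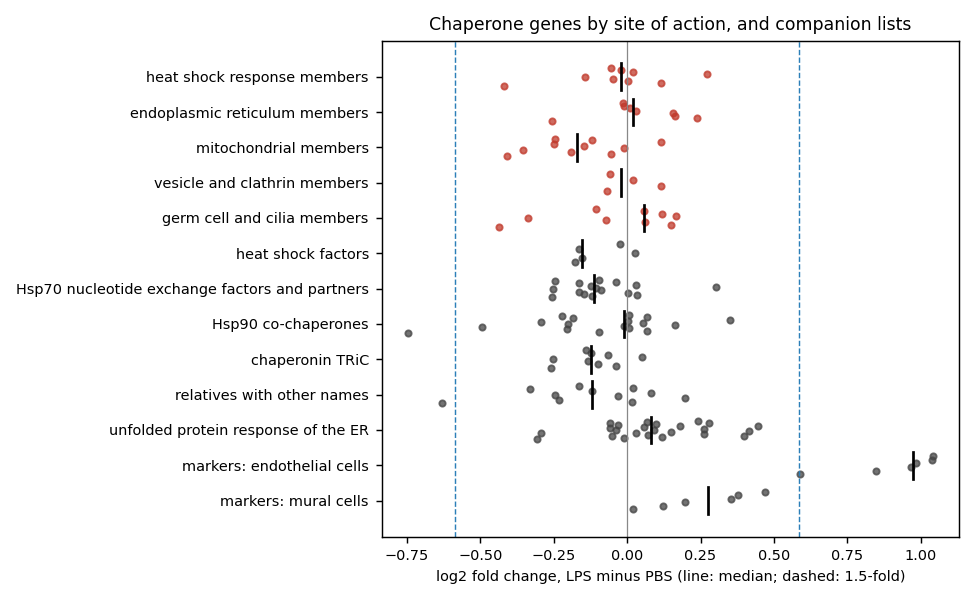
Log2 fold change, LPS minus PBS, of the members by site of action (red) and of the genes of the companion lists and of endothelial and mural markers (grey), with the median of each as a black line and a 1.5-fold difference as dashed lines. The mitochondrial members lie at a median of -0.17, the other member groups between -0.02 and 0.06, and the endothelial markers at 0.97. Hspa8, Hspd1 and Hspe1 stand in 2 member groups each.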

How the data were processed

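Gene expression was measured on 6 arrays (PBS, n = 3, LPS, n = 3). The log2 expression values deposited by the authors were used as they stand. They were made by RMA, which corrects background, normalizes between arrays and summarizes probes. The methods name 2 RMA versions without saying which gave these values, and no detection call per probe was used. No further normalization or filter was applied. Symbols came from the platform annotation, and positions and promoters from RefSeq on GRCm38.p6.

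The 2 groups were compared by two-sided tests in limma 3.58.1 (R 4.3.3) over all 35556 clusters, adjusted by Benjamini-Hochberg. On simulated data the procedure called 34.3% of clusters changed 1.5-fold and 94.0% of those changed 2-fold. Most changes of 1.5-fold or less would thus be missed. Precision is limited by the number of arrays, and an exact two-sided permutation of 3 against 3 mice cannot give a p below 0.1. The members and lists were chosen with earlier results of these data known. Members named are those at an unadjusted p under 0.05 and, in each family, the 4 with the smallest p and the 3 with the highest mean. Well known members and, in each list, up to 4 genes with the smallest p are also named. Others serve to describe a group or are marked. Marker lists cover neurons, astrocytes, oligodendrocytes, microglia, endothelial and mural cells, ependyma and choroid plexus, blood cells, liver and skeletal muscle. Groups by site of action, their medians without some LPS arrays or Hspa8, and the count of intervals were added after the data were seen. Alternatives were the methods' t-test, quantile normalization, median centring, array weights, a variance trend, robust eBayes, a filter on the 40% dimmest clusters, clusters naming 1 gene, the replicate block, an offset of 32, arrays left out, the mean of a gene's clusters and an adjusted p under 0.1.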

Additional observations from a re-analysis of the deposited data

How the results depend on the processing

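With limma as in the report, 0 members were higher and 0 lower. The count stayed at 0 in both directions under 17 of 19 alternatives. Array weights gave 4 higher (Dnajb4, Dnajc24, Hspa12b and Hspb6) and 8 lower (Dnaja3, Dnajb12, Dnajc15, Dnajc30, Dnajc5g, Hspa14, Hspa9 and Hspb8), and 11 higher and 15 lower at an unadjusted p under 0.05, while 8323 of 35556 clusters were called. Leaving out each array in turn gave 0 to 0 higher and 0 to 2 lower, 2 to 6 higher and 2 to 13 lower at an unadjusted p under 0.05, and medians from -0.0468 to -0.00446, with the 2 calls, Dnajc30 and Hspb8, and the 13 lower without LPS replicate 3, and 2 higher with 2 or 3 lower without PBS replicate 1, PBS replicate 2, LPS replicate 1 or LPS replicate 2. With LPS replicates 1 and 2 both left out, which assumes that the single LPS array varies like the PBS arrays, 3 were higher and 3 lower at an unadjusted p under 0.05 and the median was 0.0259. Quantile normalization gave 3 higher at an unadjusted p under 0.05, and centring gave 0 higher and a median of -0.11. With the replicate block, 3 were higher at an unadjusted p under 0.05 and none was called. Deviations of same-numbered arrays correlated at 0.0867, -0.0538 and 0.0997, within the range of all PBS and LPS pairs (-0.166 to 0.146). With 3 arrays per group this cannot show whether the numbers pair the mice. The cause of these differences was not tested. Groups of 3 mice leave intervals of about the size of the differences described.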

Other observations

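Of 6 astrocyte genes 0 passed limma, with a median log2 fold change of 0.10 and Gfap, an intermediate filament gene of reactive astrocytes, at 0.56 (adjusted p = 0.130 from limma). Of 5 microglial genes 0 passed, with a median of 0.11 and Cx3cr1, the fractalkine receptor gene, at 0.47 (adjusted p = 0.216). Red blood cell genes (4) and genes of lymphocytes and neutrophils (6) had medians of -0.07 and -0.11 at levels from 5.04 to 6.06, close to the receptor medians, and the 5 liver and 5 skeletal muscle genes had medians of -0.23 and -0.15.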
